A study of Mus musculus with 2 samples.

Results

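The Slit ligands and Robo receptors are a family of secreted proteins and cell surface receptors that guide axons, neurons and blood vessels. The 7 mouse genes Slit1, Slit2, Slit3, Robo1, Robo2, Robo3 and Robo4 (3 ligands and 4 receptors) were taken by gene symbol from the 43346 genes in the deposited tables, of which 21474 are annotated as protein-coding. Their RNA was measured by total RNA-seq in neural tube, the tissue from which brain and spinal cord form, taken at embryonic day 11.5 from mouse embryos of the B6NCrl strain. The labels name no treatment and no genetic change, and males and females were pooled. Replicate 1 was a pool of tissue from 109 embryos and replicate 2 a pool from 88 embryos. They form 1 group, so no condition was compared with another.

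Slit proteins are large secreted proteins that bind the extracellular part of Robo receptors and usually repel the growth cone that carries the receptor. In the spinal cord they are known from the floor plate, the ventral midline tissue that commissural axons cross, where Slit keeps axons that have crossed from crossing again. Robo1 and Robo2 are the main repulsive receptors of these axons. Mammalian Robo3 works differently: it is needed for commissural axons to approach and cross the midline, it binds Slit poorly, and it responds to the secreted protein Nell2. Robo4 is a receptor of endothelial cells, which line blood vessels.

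Replicate 1 held 27638068 expected counts and replicate 2 held 29166901, of which 19828 and 21977 fell on the 7 genes. Levels are given in TPM, a share of transcripts after division by length, scaled to a common total that includes the spike-in RNAs added to each library. Spike-ins made up 13.2% of TPM in replicate 1 and 11.8% in replicate 2. All 8 neural progenitor markers and all 8 pan-neuronal markers were detected, which means 1 TPM or more in both libraries. All 8 mesenchyme markers and all 8 skeletal muscle markers were detected as well, with medians of 29.1 and 53.9 TPM, against 144 and 233 TPM for the progenitor and pan-neuronal markers. In such whole tissue, fewer cells of a type and less RNA per cell cannot be told apart.

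All 7 genes were detected. Slit2 had the highest TPM and Robo4 the lowest, and the order Slit2, Robo3, Robo1, Slit3, Robo2, Slit1, Robo4 was the same in both libraries. Each gene's lower value lay above the higher value of the next gene in that order, so the ranges over the pools did not overlap in any of the 6 pairs of neighbours. Of all protein-coding genes 59.9% were detected, and their median level was 4.40 TPM. Robo4 stood close to that median, above 51.3% of protein-coding genes, and Slit2 above 92.9% of them.

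**Figure D1:**
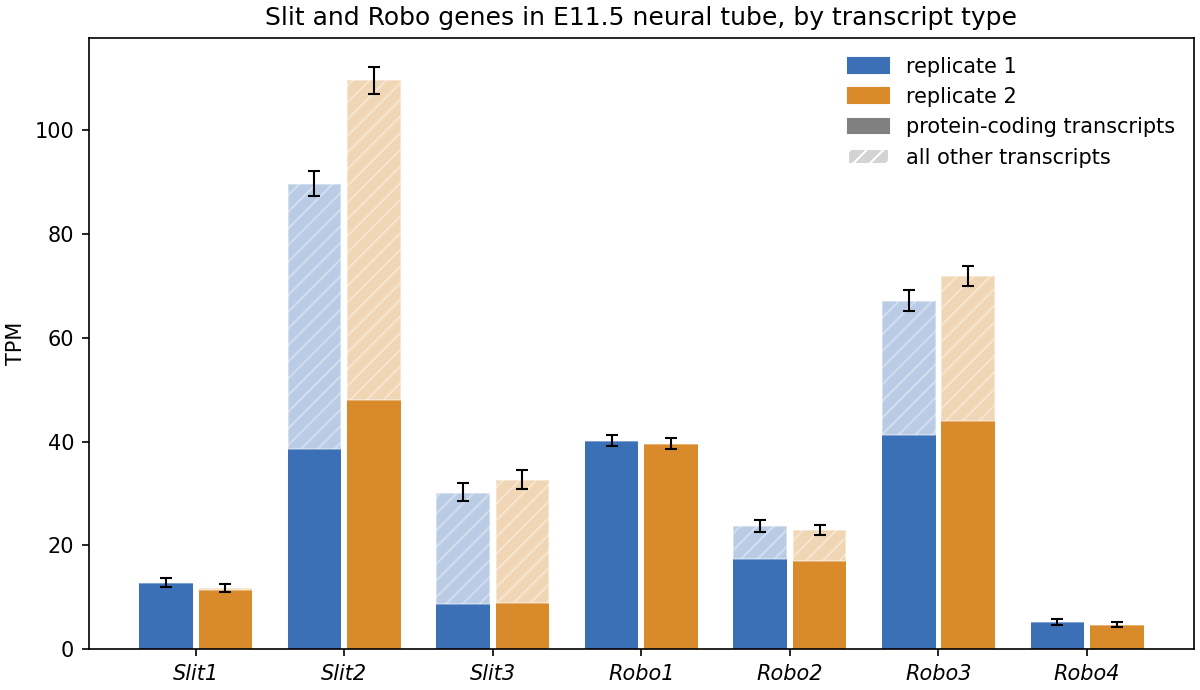
Level of each gene in TPM (vertical axis) in replicate 1 (left bar) and replicate 2 (right bar). Solid parts are transcripts typed as protein-coding, hatched parts all other transcripts, and error bars are exact 95% Poisson intervals of the counts, which cover counting error only. Slit2 reaches 89.8 and 109.7 TPM, with hatched parts larger than the solid ones, and Robo1, at 40.2 and 39.6 TPM, has no hatched part.

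Among the ligands, Slit2 had 89.8 TPM in replicate 1 and 109.7 TPM in replicate 2, from 5627 and 7003 expected counts. Slit2 is the ligand best known from floor plate and motor neurons, and its gene (ENSMUSG00000031558.11) lies on the plus strand of chromosome 5, 47983138 to 48307733 (GRCm38). Its 14.1% coefficient of variation was the widest of the 7. Slit3 (ENSMUSG00000056427.6, chromosome 11, 35121224 to 35708507, plus strand), a ligand that is also known from outside the nervous system, had 30.2 and 32.7 TPM from 1154 and 1288 counts. Slit1 (ENSMUSG00000025020.7, chromosome 19, 41600257 to 41743665, minus strand), a ligand mainly of the nervous system, had 12.8 and 11.8 TPM from 1008 and 988 counts.

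Slit2 stood 8.07-fold above Slit1, a log2 ratio of 3.01 ± 0.29 (SD, n = 2), and 3.16-fold above Slit3, a log2 ratio of 1.66 ± 0.12 (SD, n = 2). Slit1 stood below Slit3 by a log2 ratio of -1.35 ± 0.17 (SD, n = 2). Slit2 alone made up 67.6% of the summed Slit TPM in replicate 1 and 71.2% in replicate 2.

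Among the receptors, Robo3 was the highest in both libraries. It had 67.2 TPM in replicate 1 and 71.9 TPM in replicate 2, from 4629 and 5043 expected counts, and made up 49.3% and 51.7% of the summed Robo TPM. Robo3 (ENSMUSG00000032128.10) lies on the minus strand of chromosome 9, 37415669 to 37433246, and Robo4 (ENSMUSG00000032125.15) ends beside it on the plus strand, 37401897 to 37415115. Robo1 (ENSMUSG00000022883.10, chromosome 16, 72308306 to 73046095, plus strand) had 40.2 and 39.6 TPM from 5221 and 5304 counts, which in TPM was the closest match between the pools among the 7 genes. Robo2 (ENSMUSG00000052516.13, chromosome 16, 73891839 to 74411825, minus strand) had 23.7 and 22.9 TPM from 1850 and 2044 counts.

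Robo4 had 5.28 TPM in replicate 1 and 4.72 TPM in replicate 2, from 339 and 307 counts. Robo3 stood 1.74-fold above Robo1 (log2 ratio 0.80 ± 0.09, SD, n = 2) and 2.98-fold above Robo2 (log2 ratio 1.58 ± 0.11, SD, n = 2). Robo1 stood 1.71-fold above Robo2 (log2 ratio 0.77 ± 0.02, SD, n = 2), and Robo2 4.67-fold above Robo4 (log2 ratio 2.22 ± 0.08, SD, n = 2). Robo1, Robo2 and Robo3 together reached 26.6 times the level of Robo4.

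The summed Slit TPM was 132.8 in replicate 1 and 154.1 in replicate 2, and the summed Robo TPM was 136.4 and 139.2. The log2 ratio of Slit over Robo was -0.04 in replicate 1 and 0.15 in replicate 2, a mean of 0.05 ± 0.13 (SD, n = 2), so its sign differed between the pools.

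A gene's TPM adds up all its annotated transcripts, and these differed widely in kind. Transcript types are those of GENCODE M21. Transcripts typed as protein-coding held all of the TPM of Robo1 and Robo4 in both libraries and 100% and 97.1% of that of Slit1. They held 73.1% and 74.3% for Robo2, 61.4% and 61.1% for Robo3, 43.0% and 43.8% for Slit2, and 28.8% and 27.4% for Slit3. The rest lay on transcripts typed as retained intron, processed transcript or nonsense-mediated decay, the degradation of messages with an early stop codon. Over the 7821 protein-coding genes with more than 1 transcript and at least 5 TPM, the median share outside coding transcripts was 6.59%. The mean shares of Slit3, 71.9%, and Slit2, 56.6%, were above those of 96.7% and 93.3% of these genes.

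Slit3 had its highest share on Slit3-202, a transcript of 1218 bases with no annotated coding sequence, to which 61.1% of Slit3 TPM in replicate 1 and 69.7% in replicate 2 were assigned from 359 and 457 counts. The coding transcript Slit3-201 took 28.8% and 27.4% from 776 and 824 counts. Slit3-202 has 9 exons, of which 7 have the same borders as exons of Slit3-201, and 974 of its 1218 bases lie inside exons of the coding transcript. Reads inside these bases can come from either form, and the shares are estimates.

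Slit2 had 20 annotated transcripts. The coding Slit2-202 held 31.8% of its TPM in replicate 1 and 30.4% in replicate 2, and the retained-intron transcript Slit2-207 took 19.9% and 19.0%. Slit2-209, a retained-intron fragment of 388 bases in the deposited tables, took 22.4% and 24.2% from only 101 and 138 counts. The Slit2 transcripts shorter than 1 kb together held 31.0% and 31.7% of Slit2 TPM but 2.95% and 2.94% of its counts, and coding transcripts held 75.3% and 76.7% of its counts.

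The other genes had all or most of their TPM on coding forms, in different ways. Robo1 had a single transcript in the files, Robo1-201. Slit1 was divided mainly between the coding transcripts Slit1-201, with 43.7% in replicate 1 and 47.3% in replicate 2, and Slit1-203, with 38.6% and 39.7%. Slit1-205, a transcript of 1220 bases also typed as protein-coding, took 17.7% and 10.1% from only 44 and 24 counts. No form of Robo2 led in both pools. The retained-intron transcript Robo2-209 led in replicate 1, with 23.9% against 22.9% in replicate 2, and the coding Robo2-202 led in replicate 2, with 20.5% in replicate 1 and 25.5% in replicate 2. Robo4-201 held 43.8% of Robo4 in replicate 1 and 80.0% in replicate 2, the least even leading share of the 7 genes, from 144 and 243 counts with deposited posterior SDs of 44.1 and 28.8.

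Counting protein-coding transcripts only, Slit2 had 38.6 TPM in replicate 1 and 48.0 TPM in replicate 2, Robo3 had 41.2 and 43.9 TPM, and Robo1 had 40.2 and 39.6 TPM. On this scale Slit2 no longer stood apart: its log2 ratio over Robo3 was -0.09 in replicate 1 and 0.13 in replicate 2, and over Robo1 -0.06 and 0.28. Slit1, at 12.8 and 11.4 TPM, stood above Slit3, at 8.70 and 8.95 TPM, so the order of these ligands was the reverse of that over all transcripts. The log2 ratio of summed Slit over summed Robo became -0.71 ± 0.12 (SD, n = 2), with the same sign in both pools.

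Expected counts per kb of each gene's longest deposited transcript gave a further scale. Robo3 had 926 and 1009 counts per kb, Slit2 821 and 1022, and Robo1 690.3 and 701 in replicates 1 and 2. Robo2 had 228 and 252 and Slit3 221 and 246 counts per kb, and their ranges overlapped. Slit1 had 178 and 174 and Robo4 85.9 and 77.8. On all 3 scales Slit2, Robo3 and Robo1 were the 3 highest genes and Robo4 was the lowest.

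**Figure D2:**
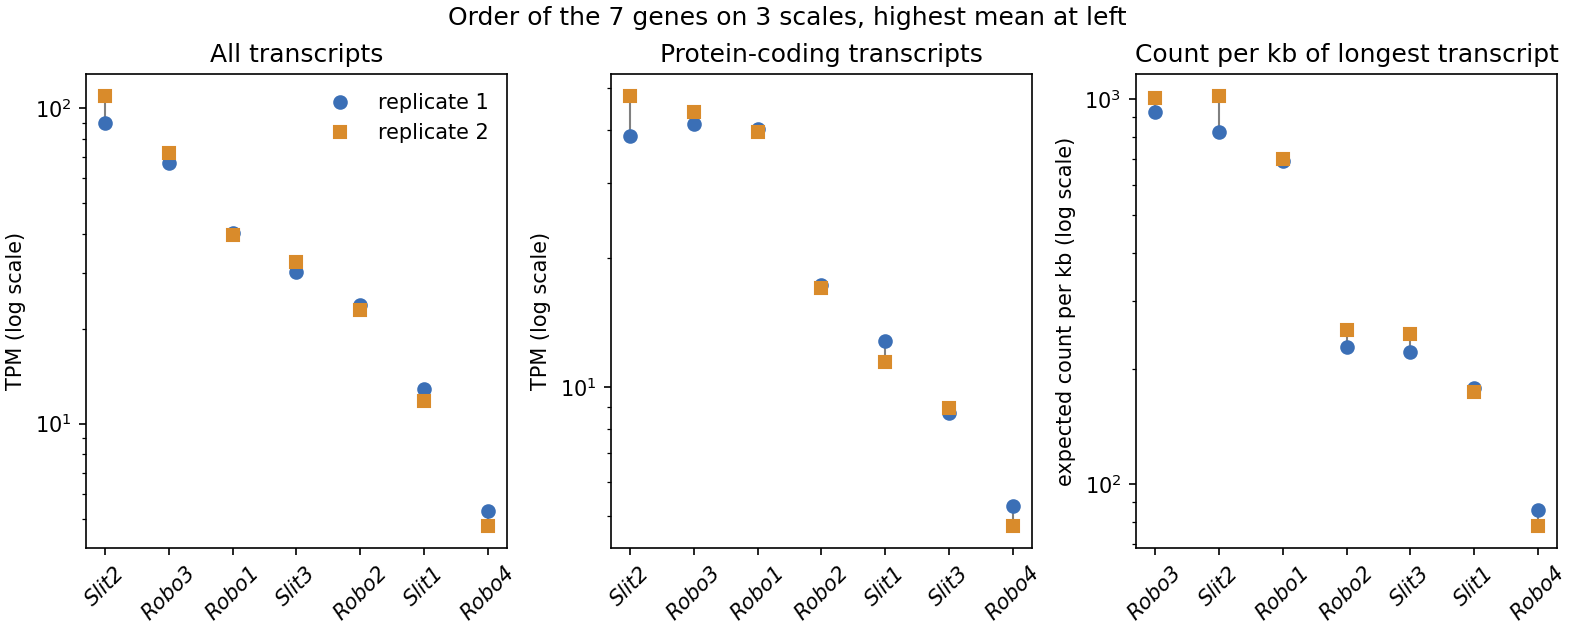
The 7 genes ordered by mean value, highest at left, on 3 scales: TPM of all transcripts, TPM of protein-coding transcripts, and expected count per kb of the longest transcript (log axes). Circles are replicate 1 and squares replicate 2. Slit2 leads at 89.8 and 109.7 TPM over all transcripts, while on the other scales its values span those of Robo3.

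Robo3 is known to be spliced into a form that ends in the usual last exons, Robo3.1, and a form that keeps the intron after exon 26, Robo3.2. The encoded receptors have different cytoplasmic ends and act on opposite sides of the midline in the mouse. The files hold 6 Robo3 transcripts. Robo3-202, which has 28 exons and splices this intron out, held 61.4% of Robo3 TPM in replicate 1 and 61.1% in replicate 2. Robo3-201, a coding form that starts at a first exon downstream of that of Robo3-202, was listed at 0 in both.

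Intron 26 (chromosome 9, 37416921 to 37417325, 405 bases) is retained in 2 annotated transcripts. Robo3-205, the full-length form that keeps only this intron, had 3.77% and 2.15% of Robo3 TPM. It is typed as nonsense-mediated decay, so the protein-coding level of Robo3 given above leaves out its 2.54 TPM in replicate 1 and 1.54 TPM in replicate 2. Its counts of 216 and 136 carried deposited posterior SDs of 52.3 and 44.1. Robo3-203, a partial transcript that keeps introns 25 and 26, had 13.6% and 12.6%. Together they held 17.3% of Robo3 TPM in replicate 1 and 14.7% in replicate 2, a mean of 16.0% ± 1.85 (SD, n = 2), from 553 and 481 counts. Introns 25 and 26 make up 188 and 405 of the 2226 bases of Robo3-203. Its last exon ends 17578 bases from the Robo3-202 start, further downstream than that of Robo3-202, at 17202. Reads outside intron 26 can therefore add to the share of Robo3-203, and whether intron 26 was retained was not tested.

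A further partial transcript, Robo3-206, keeps introns 14, 20 and 21 and had 20.9% and 22.6% of Robo3 TPM. The TPM assigned to forms annotated with a retained intron was therefore not limited to those with intron 26. Introns 14, 20 and 21 make up 174, 356 and 139 of the 3222 bases of Robo3-206. Its other bases lie inside exons of the leading coding form. Reads inside these exons can come from either form, and the shares are estimates. Whether introns 14, 20 and 21 were retained was not tested. The share of Robo3-205 among full-length forms was 5.80% in replicate 1 and 3.39% in replicate 2. Pre-mRNA that had not been spliced and finished messages that keep an intron cannot be told apart in these values, and no count of reads over single junctions was used.

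Robo3-205 begins at the first exon of Robo3-201, downstream of that of Robo3-202, and also differs from Robo3-202 at the end of exon 26, where the sequences of the forms part. The 30 bases of exon 26 are in capitals in both, followed by the retained intron in Robo3-205 (chr9:37417266-37417355, minus strand) and by exon 27 in Robo3-202 (reference sequence, GRCm38).
Robo3-205: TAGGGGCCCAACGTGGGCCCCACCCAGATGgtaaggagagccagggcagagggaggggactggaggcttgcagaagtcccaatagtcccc
Robo3-202: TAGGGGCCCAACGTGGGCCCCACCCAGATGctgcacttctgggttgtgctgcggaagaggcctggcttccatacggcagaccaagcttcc
The reading frame of Robo3-205 runs 128 bases into the intron and ends at a stop codon, in capitals in the following stretch (chr9:37417195-37417227, minus strand).
Robo3-205 stop: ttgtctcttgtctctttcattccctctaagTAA

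**Figure D3:**
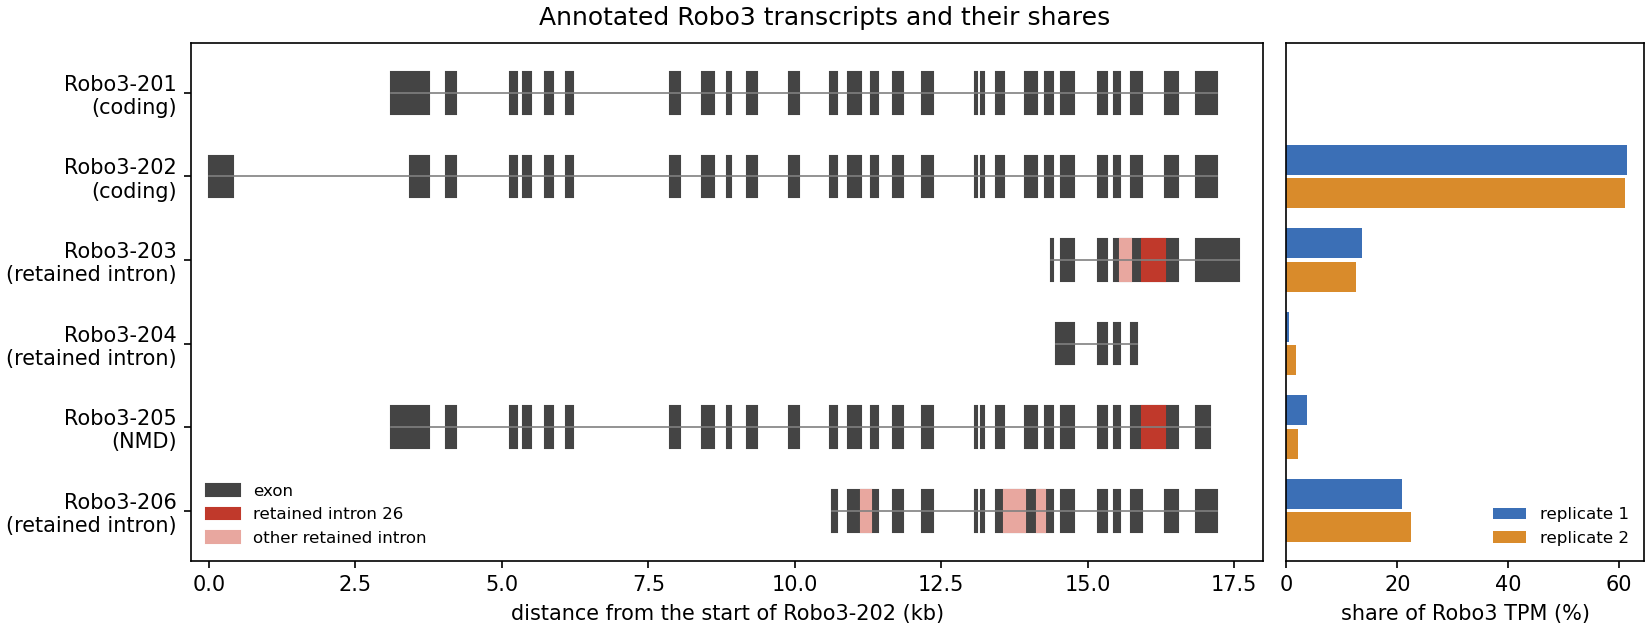
Annotated exons of the 6 Robo3 transcripts by distance in kb from the start of Robo3-202 (left), and the share of Robo3 TPM of each in percent (right; upper bars replicate 1, lower bars replicate 2). Dark red marks intron 26 where retained and light red other retained introns. Robo3-202 holds 61.4% and 61.1%, and the forms annotated with intron 26, Robo3-203 and Robo3-205, hold 17.3% and 14.7% together.

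Lhx2 and Lhx9 are LIM homeodomain factors of dorsal commissural neurons that are known to be needed for Robo3 expression in the mouse. Lhx2 had 4.70 TPM in replicate 1 and 6.91 TPM in replicate 2, and Lhx9 had 8.11 and 8.90 TPM. Homeodomain proteins of this kind bind sites with the core TAATTA, shown in capitals in the 100 bases upstream of the Robo3-202 start (chr9:37433247-37433346, minus strand, RefSeq, GRCm38).
Robo3: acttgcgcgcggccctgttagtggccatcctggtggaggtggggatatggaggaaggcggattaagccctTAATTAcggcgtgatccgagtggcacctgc
TAATTA reads the same on both strands. It occurred in the 250 bases upstream of 4.84% of 32851 RefSeq promoters and in 1 of the 8 promoters that the table gives for 6 of the 7 genes, that of Robo3. A match is a description of the letters and was not tested as a binding site.

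Slit2 and Slit3 each carry a copy of the microRNA gene mir-218 in an intron. Mir218-1 lies between exons 16 and 17 of Slit2-202 and Mir218-2 between exons 14 and 15 of Slit3-201, both on the strand of their host. In other tissues this microRNA is known to lower Robo1 and Robo2. Both copies give the same mature RNA, shown with its seed (bases 2 to 8) in capitals (RefSeq, GRCm38).
mmu-miR-218-5p: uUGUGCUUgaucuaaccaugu
Both entries had 0 counts in both libraries. RNA of 200 bases or less had been removed and the hairpins are 110 bases long, so the level of the microRNA was not measured here.

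The letters that pair with this seed, AAGCACA, occurred on the transcribed strand in the 3′ UTR of 3 of the 4 receptors, each read from the annotated transcript with the longest coding sequence. For Robo1 and Robo2 these were Robo1-206 and Robo2-210, which are annotated in GENCODE M21 but are not among the deposited transcripts. Robo1 and Robo3 had 1 site each and Robo2 had 2, of which the first is shown (GRCm38, seed match in capitals).
Robo1 (chr16:73045333-73045360): tttttttggttttaaAAGCACAatcact
Robo2 (chr16:73895353-73895380): attttatttggtgatAAGCACAaatctc
Robo3 (chr9:37416239-37416266): gcttgtgactcactgAAGCACActgtct
In stretches of the same length from the other 3′ UTRs at least that long, the letters occurred in 17.5% at the length of Robo1, 33.0% at that of Robo2 and 3.69% at that of Robo3. Slit2 had 1 site, against 13.3%, and Slit1, Slit3 and Robo4 had none in the searched UTRs.

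Between the pools, replicate 1 over replicate 2, none of the 7 genes passed a log2 ratio of 0.32 in either direction, the fold set for this comparison, after TMM scaling. Of the 17219 genes with at least 10 counts in a library 21.5% passed it. Shallow genes vary more, and of the 6282 genes with 2000 or more counts over both libraries, a limit set after the values were seen, 0.732% passed it. Slit2 was lower in replicate 1 by a log2 ratio of -0.23, with a 95% counting interval of -0.28 to -0.18. Of the 6282 deeply counted genes 4.04% had a larger ratio in size. Robo4 had the ratio 0.23 (0.004 to 0.46) and Robo1 0.07 (0.01 to 0.12).

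Those 3 of 7 intervals left out 0, as did the intervals of 30.7% of all genes tested and of 41.1% of the deeply counted ones. The intervals of Slit1 at 0.12 (-0.01 to 0.24), Slit3 at -0.07 (-0.19 to 0.05), Robo2 at -0.06 (-0.15 to 0.04) and Robo3 at -0.04 (-0.09 to 0.02) included it. These intervals cover counting error only, each side holds 1 library, and no p-value was computed. When libraries were scaled by their spike-ins, the median gene moved by -0.20, the ratios of Slit1 and Robo1 changed sign, to -0.083 and -0.13, and that of Robo4 became 0.031.

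Marker lists of several cell types also differed between the pools, not all in the direction of Slit2 or Robo4. All 8 motor neuron markers were lower in replicate 1, with a median log2 ratio of -0.39. Of them 5 of 8 passed that fold, against 21.5% of all genes tested in either direction. Their summed level was 161.9 TPM in replicate 1 and 216.7 TPM in replicate 2. All 8 pan-neuronal markers were lower in replicate 1 as well, with a median of -0.14 and summed levels of 2062 and 2391 TPM. All 8 skeletal muscle markers were higher in replicate 1, with a median of 0.30 and summed levels of 500.1 and 416.6 TPM. Spon1, a secreted protein of the floor plate, had a ratio of -0.23, close to that of Slit2, while 5 of 8 floor plate markers had a ratio above 0, with a list median of 0.12. Of the 14 endothelial markers, with summed levels of 279 and 291 TPM, 9 had a log2 ratio above 0, with a list median of 0.03. Of their intervals 3 lay above 0 and 0 below it. Over all genes tested the median ratio was 0.0016, and 30.7% of the intervals left out 0 in either direction. By TPM, 4 of the 14 were higher in replicate 1 than in replicate 2. The part of these cells in the ratios of Slit2 and Robo4 was not tested.

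**Figure D4:**
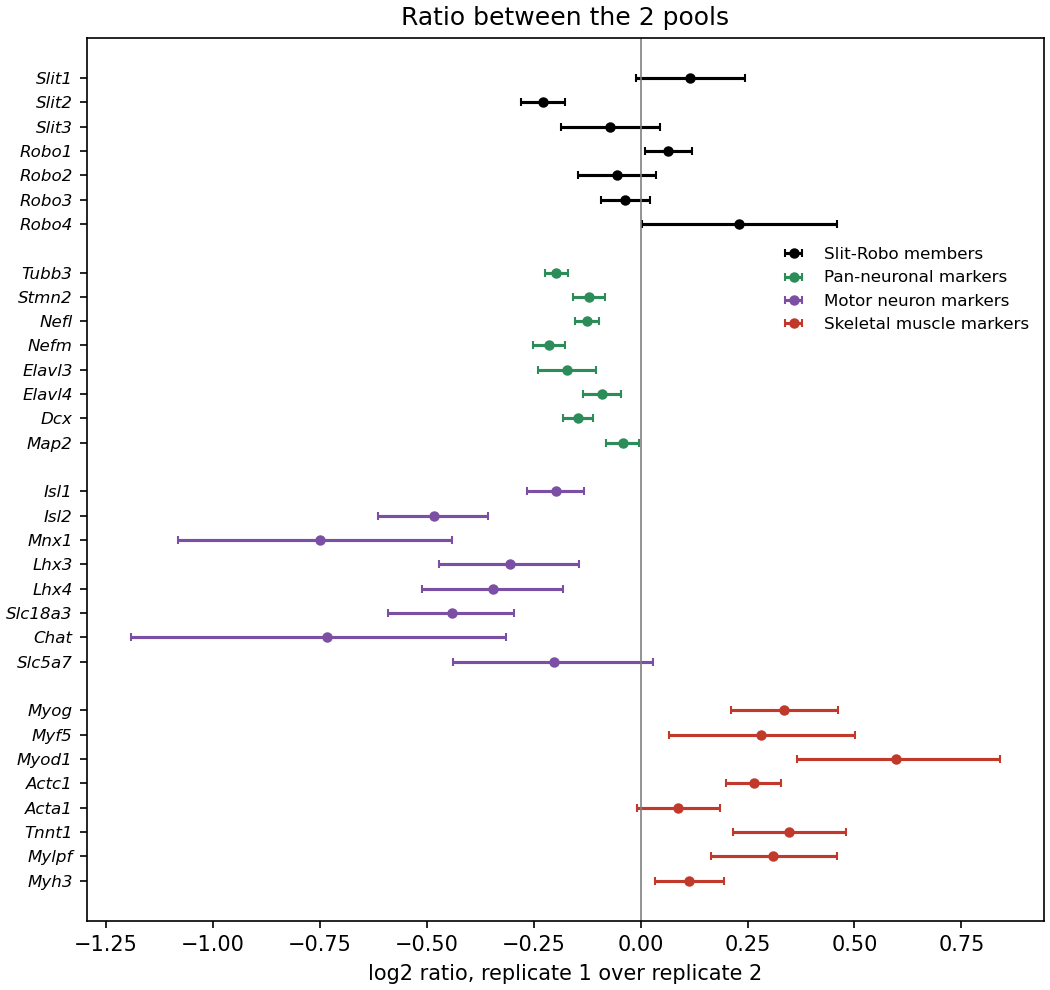
Log2 ratio of replicate 1 over replicate 2 (horizontal axis) for the 7 genes and for pan-neuronal, motor neuron and skeletal muscle markers; bars are exact 95% counting intervals and the line marks equal levels. Slit2, at -0.23, lies left of the line, as do Slit3, Robo2 and Robo3, at -0.07, -0.06 and -0.04. The medians of the pan-neuronal and motor neuron markers are -0.14 and -0.39.

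RNAs for most of the listed proteins that work with Slit and Robo were detected. Beside the list counts that follow, 59.9% of all protein-coding genes were detected, and the lists were chosen with earlier results known. Among partners and other ligands 8 of 9 genes were detected, and the list's median was 26.1 TPM. Nell2, the ligand of Robo3, stood at 111 ± 12.9 TPM (SD, n = 2), with 102 TPM in replicate 1 and 120 TPM in replicate 2. The netrin receptor Dcc, which forms complexes with Robo1 and Robo3, had 32.9 and 37.3 TPM, and its attractive ligand Ntn1 had 8.84 and 7.84 TPM. Flrt3, a transmembrane protein that binds Robo1, had 41.5 and 36.7 TPM, and the Wnt co-receptor Ptk7 had 27.4 and 25.7 TPM. The netrin receptor Dscam had 0.88 and 0.77 TPM.

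All 22 cytoplasmic signalling genes reached the detection limit, and their median was 31.9 TPM. Among them, the actin cytoskeleton regulators Cdc42 and Rac1 stood at 576 ± 5.33 TPM and 316 ± 2.75 TPM (SD, n = 2). The kinase gene Pak1, an effector of Rac and Cdc42, had 65.0 ± 4.47 TPM (SD, n = 2). All 16 genes for heparan sulfate, a sugar chain that Slit and Robo need to bind each other, and for Slit-binding surface proteins were detected, and their median was 19.3 TPM. The chain-building enzyme Ext2 had 57.2 and 60.9 TPM, the Slit-binding dystroglycan Dag1 50.9 and 49.2 TPM, the syndecan Sdc1 43.2 and 46.7 TPM and the glypican Gpc1 38.5 and 41.6 TPM.

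Of 8 genes for trafficking and turnover of Robo 7 were detected. Nedd4, a ubiquitin ligase, stood at 627 ± 7.99 TPM, and its adaptors Ndfip1, at 329 ± 14.3 TPM, and Ndfip2, at 62.3 ± 0.474 TPM (SD, n = 2), are known to lower Robo1 on commissural axons before they cross. The deubiquitinase Usp33, needed for the Slit response, had 57.6 and 61.0 TPM. Prrg4, the vertebrate relative of the fly Robo sorting protein Commissureless, was listed at 0.33 and 0.14 TPM, from 16 and 7 counts.

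Of 8 floor plate markers 6 were detected, and the list's median was 1.61 TPM. Spon1, at 52.5 and 63.6 TPM, stood far above the next, the transcription factor Foxa2, at 3.21 and 3.20 TPM. The ciliogenesis factor Foxj1 had 1.94 and 2.45 TPM and the morphogen gene Shh 2.04 and 1.60 TPM, while Ferd3l, at 0.95 and 0.57 TPM, and Nkx2-9, at 0.30 and 0.67 TPM, lay under 1 TPM. All 9 commissural neuron factors were detected, at a median of 7.69 TPM. Cntn2, an axonal adhesion protein, had 40.9 and 46.4 TPM, and the progenitor factors Dbx1 and Atoh1 had 13.4 and 14.7 TPM and 12.1 and 13.6 TPM. All 14 endothelial markers were detected, with 17.5 TPM as the list's median. The highest were Egfl7, a secreted vessel protein, at 53.5 and 60.6 TPM, and Plvap, a protein of endothelial diaphragms, at 40.7 and 38.7 TPM. The tight junction gene Cldn5 had 27.4 and 29.9 TPM and the adhesion gene Esam 25.8 and 28.2 TPM. All 8 motor neuron markers were detected, with 13.6 TPM as the median. Of 6 roof plate markers 5 were detected, with a median of 2.44 TPM, and of the 7 sensory and sympathetic ganglion markers in the files 6 were, with a median of 15.2 TPM. Over all 14 lists beside the 7 genes, 139 of 140 genes were in the files and 133 were detected, against 59.9% of all protein-coding genes.

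**Figure D5:**
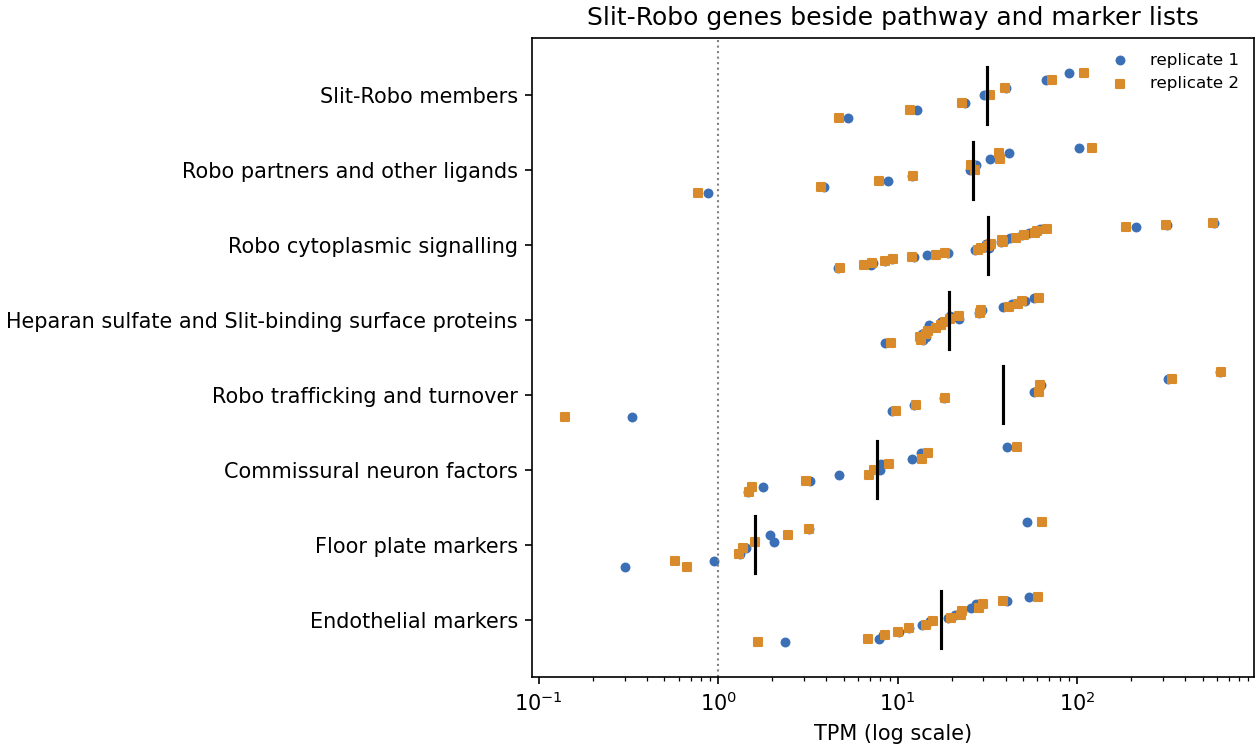
TPM (log axis) of the 7 genes and of 7 lists of pathway and marker genes; circles are replicate 1, squares replicate 2, black bars list medians, and the dotted line is the detection limit of 1 TPM. The 7 genes span 4.72 to 109.7 TPM, and the floor plate list, with a median of 1.61 TPM, lies lowest.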

How the data were processed

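Expected counts, TPM values and transcript shares in percent were deposited by the authors per gene and transcript, on mm10 with GENCODE M4 per the deposited file descriptions. The deposited posterior SD of each count was also used. Aligner, quantifier and strandedness: not given in the sources used here. Without strand, reads of overlapping opposite-strand genes cannot be separated. Per the labels' protocols, each library started from 10 ng of RNA over 200 bases. The labels name both total RNA-seq and a SmartSeq protocol, and how this bears on the transcript shares was not tested. The labels call the pools biological replicates.

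Symbols, transcript types and coordinates came from GENCODE M21 (GRCm38), by identifier without version. Some transcripts have other lengths in M21, among them most of those of Slit2. Slit2-202 has 6854 bases as deposited and 7758 in M21, and Robo2-201 has 4764 and 886. A Slit2 transcript listed at 0 TPM is not in M21. How this bears on the coding shares was not tested. Expected counts were rounded, and edgeR 4.0.16 (R 4.3.3) gave TMM-scaled log2 ratios with a prior count of 2 for genes with 10 counts in a library; DESeq2 1.42.0 gave alternative size factors. With 1 group of 2 libraries, n is 2, no hypothesis test was made and no p-value is given. Intervals are exact at 95% and cover counting error only, not the spread between pools. No molecular identifiers mark independent molecules, so the intervals may be too narrow even for counting error. The deposited posterior SD of the gene count was 0 for all 7 genes, as for 66.8% of genes with 10 counts. Python 3.11.15 did the other steps. The ratio step was tested on simulated data with set changes in some genes and otherwise counting error only. That test does not bear on other variation between pools.

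The members and lists were chosen with earlier results of these data known. The rule named all members, the 4 highest genes of each list and up to 2 under 1 TPM, and Ntn1, Dcc, Nell2, Lhx2 and Lhx9. Of the genes that the rule names, 1 in the cytoplasmic signalling list is not reported here. Genes of lists that bear only on tissue makeup are given as sums and medians. Comparison of protein sequences was not made here. Alternatives and their effect are given at the end.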

Additional observations from a re-analysis of the deposited data

How the results depend on the processing

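No paired analysis was possible because the series holds 1 group. The order of levels with 1 library left out has no spread between pools, and protein identity was not computed. Over mouse genes only, TPM became 14.1 for Slit1, 114 for Slit2, 35.9 for Slit3, 45.6 for Robo1, 26.7 for Robo2, 79.5 for Robo3 and 5.72 for Robo4. The posterior mean gave 38.6 TPM for Robo1 and a Robo1 over Robo2 log2 ratio of 0.71. Coding transcripts only, an alternative chosen after seeing the data, gave 43.3 TPM for Slit2, 8.83 for Slit3, 17.2 for Robo2 and 42.6 for Robo3. On that scale the log2 ratio reversed to 0.46 for Slit1 over Slit3, and became 1.83 for Slit2 over Slit1, 2.29 for Slit2 over Slit3, 0.093 for Robo3 over Robo1, 1.31 for Robo3 over Robo2, 1.21 for Robo1 over Robo2, 1.78 for Robo2 over Robo4, -0.71 for summed Slit over Robo and 4.32 for Robo1 to Robo3 over Robo4. Counts per kb of the longest transcript gave, in the same order, -0.41, 2.38, 1.97, 0.47, 2.01, 1.54, 1.55, -0.58 and 4.54. Scaling by spike-ins moved the ratios of replicate 1 over replicate 2 to -0.083 for Slit1, -0.43 for Slit2, -0.27 for Slit3, -0.26 for Robo2, -0.24 for Robo3 and 0.031 for Robo4, and reversed Robo1 to -0.13. The cause of these shifts was not tested. The 3696 genes past the fold became 1861 past 1.5-fold, 740 past 2-fold, 8713 with no filter beyond 1 count, 945 at 100 counts in a library and 46 at 2000 counts over both. As shares of counts, Slit1-201 held 48.9% of Slit1, Slit2-202 58.7% of Slit2, Slit3-202 33.3% of Slit3, Robo2-209 19.7% of Robo2, Robo3-202 71.9% of Robo3, and the forms with intron 26 10.7% of Robo3. Posterior mean shares were 30% for Slit2-202, 22.5% for Robo2-209 and 60.6% for Robo3-202. For the medians of single gene lists, 42 alternative values lay within the spread between pools and 18 outside it. These include medians with 1 library left out, which mostly lie within that spread by construction, since it comes from the same 2 libraries. Most of the 18 came from TPM over mouse genes only. The count of 133 list genes detected stayed within 1.5 times that number under each alternative run. Leaving out either library gives the other library's value; of the ratios between members only summed Slit over summed Robo changed sign between them (-0.04 to 0.15). Robo4, with 646 counts, had the widest counting interval of the 7 genes.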
